A study of Gallus gallus with 6 samples.

Results

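Interferon regulatory factors (IRFs) and suppressors of cytokine signalling (SOCS) were followed in stimulated chicken macrophages through 5 genes, IRF1, IRF7, IRF8, SOCS1 and SOCS3. They were taken by symbol from the table of probe genes, and all 5 were read on every array, among 2253 named genes in all. IRF1 and SOCS1 were each read by 2 clones and the other genes by 1 clone, which gave 7 clones and 21 spots. IRFs are transcription factors that bind interferon response elements and switch on interferons and interferon-stimulated genes. Cytokines act through receptors that carry JAK kinases, which activate STAT factors. Among the genes that STATs switch on are those of the SOCS proteins, which bind the receptors or kinases and damp the signal, so that a rise of SOCS mRNA is a common trace of cytokine signalling in macrophages.

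The cells were macrophages grown from chicken peripheral blood, and total RNA was hybridised to 6 arrays of spotted cDNA clones. They were exposed to whole E. coli of the laboratory strain XL10 or to lipopolysaccharide (LPS) from S. typh, or left unstimulated. Per the labels the stimulus was taken off after 2 h in the late time points. Of the arrays 5 compared a pair of RNA samples, namely E. coli 1 h with unstimulated cells, LPS 1 h with unstimulated cells, E. coli 4 h with E. coli 2 h, E. coli 4 h with LPS 4 h, and finally E. coli 8 h with LPS 8 h. Of these the third is called here the E. coli time array, and the others go by stimulus and hour, as the E. coli 1 h, LPS 1 h, 4 h and 8 h arrays. The sixth array held LPS 2 h alone. The labels do not say how many birds gave blood or whether RNA was pooled.

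Each comparison rested on 1 array, so no replicate existed, no test between conditions was made, and precision is limited by how many arrays there were. Values are log2 ratios centred on the median of their array, and a ± gives the SD of a gene's spots within that array, which is technical spread. A gene was counted as past 2-fold when its centred ratio was at least 1 in size. The log base is unstated and was assumed to be 2, and every fold given rests on this. No source states the numerator or the dyes, so signs are as deposited. If channel 1 was the numerator, a positive ratio would mean more transcript in E. coli 1 h on the first array, in unstimulated cells on the LPS 1 h array, in E. coli 2 h on the E. coli time array, and in E. coli on the 4 h and 8 h arrays. This is called the channel order reading below. For E. coli 1 h the title puts the control ahead of the stimulus while the channels are the other way round, and on an array that ran opposite to this reading every sign would turn.

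The number of spots with a value lay between 13310 and 14361 of 14718 on the ratio arrays. A clone's 3 spots had a median SD of 0.20 on the E. coli 1 h array and 0.19 on the LPS 1 h array, and between 0.43 and 0.59 on the other arrays. Of 20 macrophage markers listed, 11 were named on the array, and none of these lay in the dimmest 25% of genes at LPS 2 h. The brightest was the protease CTSS, at an intensity of 4.32 ± 0.72, and the complement subunit C1QB had 2.37 ± 0.19. FCER1G, at 0.40 ± 0.07, and TREM2, at 0.46 ± 0.11, lay below the median of 0.51 over all genes. Markers of other blood cells were also read. The T cell receptor subunit CD3D had an intensity of 5.40 ± 0.40, while CD28, the other T cell gene read, had 0.49 ± 0.51. Of the 3 erythroid genes the globins HBA1 and HBBA had 0.11 ± 0.02 and 0.35 ± 0.05 while CA2, a carbonic anhydrase, had 1.48 ± 0.75. Of the 4 heterophil genes AVD had 4.17 ± 0.06, S100A12 2.93 ± 0.04, CTSG 0.95 ± 0.05 and CSF3R 0.25 ± 0.02. In whole cultures a change in the number of cells of a type and a change in RNA per cell cannot be told apart.

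Over the ratio arrays 9 of 25 gene ratios were past 2-fold. After E. coli 1 h this held for 1 of the 5 genes, IRF8 on the positive side, where 14.7% of all genes were past 2-fold with a positive ratio and 1.51% with a negative one. After LPS 1 h 2 were, SOCS3 and SOCS1, both negative, against 7.37% of all genes, and none was positive, against 3.78%. The E. coli time array had 1 positive, IRF8, and 1 negative, IRF7, against 14.8% and 8.3% of all genes. SOCS3 and IRF7 were past 2-fold on the positive side of the 4 h array, where 17.7% of all genes were, and IRF8 and SOCS3 on that of the 8 h array, where 15.0% were. The median ratio of the 5 genes was 0.81 on the E. coli 1 h array and -0.94 for LPS 1 h, where the median over all genes was -0.01 and 0.05. On the 3 later arrays it lay between 0.27 and 0.40, with all-gene medians of 0.0029 to 0.04.

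**Figure D1:**
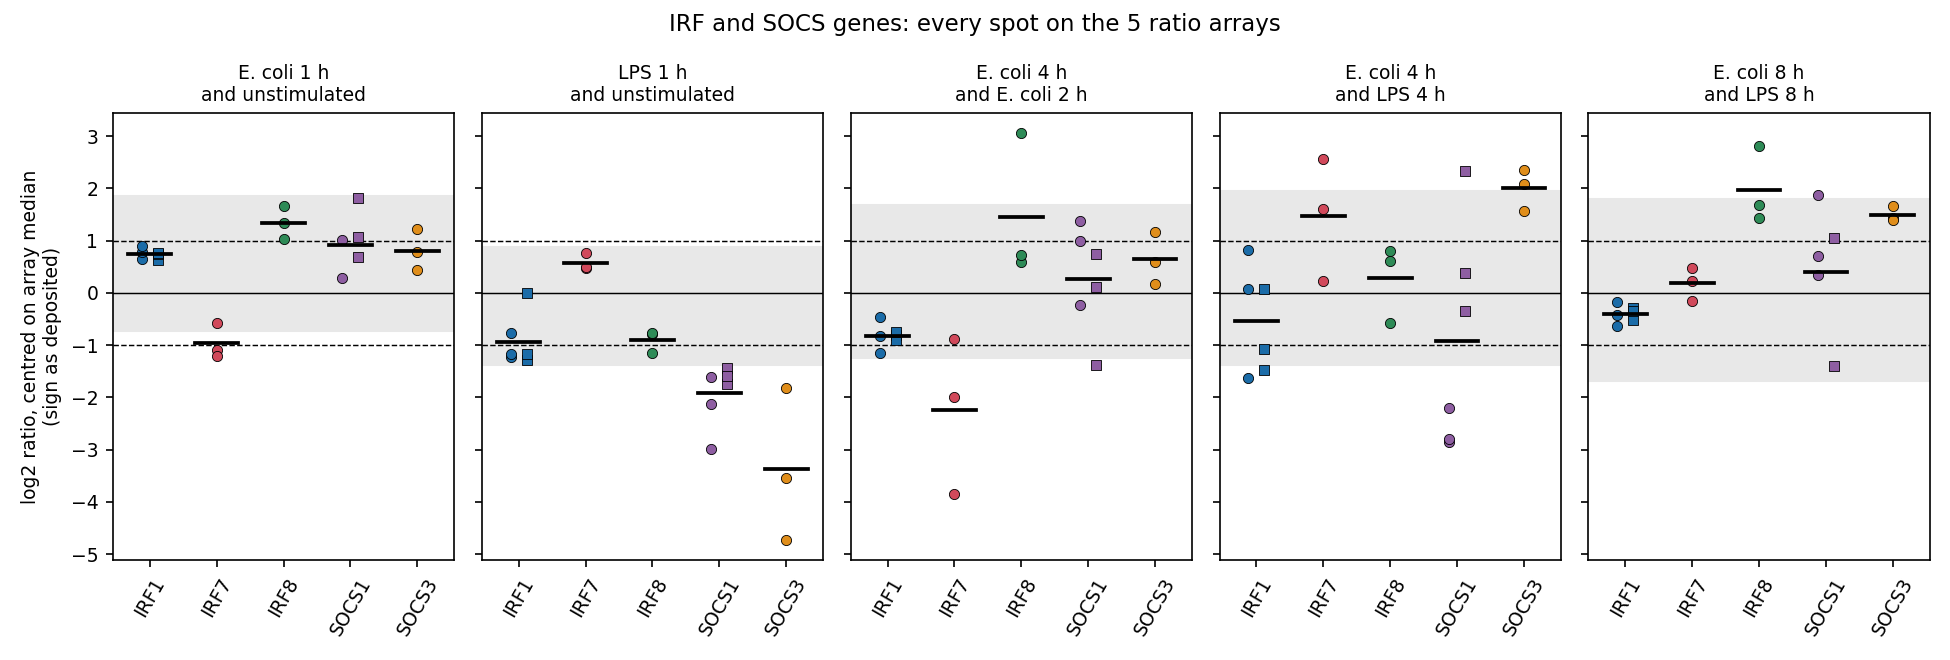
Centred log2 ratios (vertical axis, sign as deposited) of every spot of the 5 genes on the 5 ratio arrays, with circles and squares for the 2 clones of IRF1 and SOCS1. Black bars are gene means, dashed lines mark 2-fold, and grey bands span the 5th to 95th percentile of all named genes; IRF7 stands on the other side of 0 from the remaining genes on both arrays of 1 h, and SOCS3 lies above 1 in every spot at 4 h and 8 h.

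The LPS 2 h array gives the brightness of each gene in that condition. No ratio array held LPS 2 h, so the signal behind the ratios themselves was not measured. Intensities are linear, in units the authors did not state, and depend on the clone, so they are not compared as transcript levels between genes. The 2 IRF1 clones had 15.4, 12.9 and 12.2 in one and 14.8, 10.9 and 8.03 in the other, with a gene mean of 12.4 ± 2.70, and only 2 of the 2253 named genes were brighter. SOCS3 had spots of 1.55, 1.69 and 2.11 (mean 1.78 ± 0.29) and IRF8 of 1.69, 1.66 and 1.62 (mean 1.66 ± 0.04). The 2 SOCS1 clones differed, with 1.17, 1.06 and 0.76 in one and 0.48, 0.46 and 0.52 in the other. IRF7 was the dimmest of the 5, with 0.31, 0.32 and 0.26, below the median of 0.51 over all genes.

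**Figure D2:**
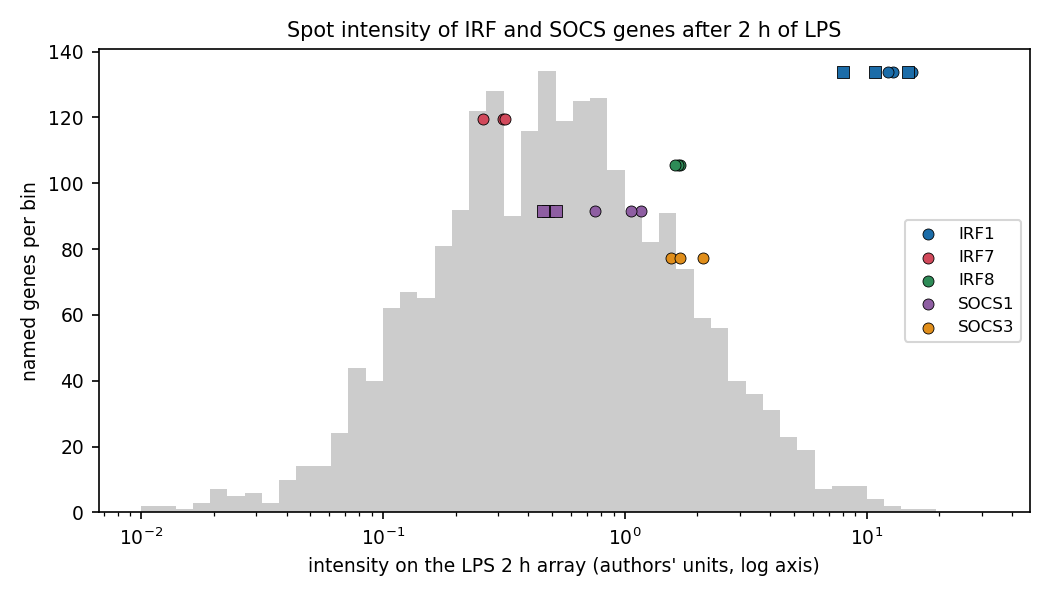
Spot intensities of the 5 genes on the LPS 2 h array (horizontal log axis, authors' units), set over a histogram of the mean intensities of all named genes above 0.01 (vertical axis, genes per bin). Circles and squares are the 2 clones of IRF1 and SOCS1, and the height of a point has no meaning; IRF1 lies at the bright end and IRF7 left of the other genes.

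IRF1, which in mouse and human is induced by interferon gamma and drives genes of antigen presentation and antiviral defence, had mean ratios within 2-fold on all 5 arrays. On the E. coli 1 h array its spots read 0.65, 0.79 and 0.90 on one clone and 0.62, 0.75 and 0.77 on the other, which gave 0.75 ± 0.10 over 6 spots. The LPS 1 h array gave -1.23, -1.16 and -0.77 on the first clone and -1.29, -1.17 and 0.00056 on the second, with a mean of -0.94 ± 0.49. The ratio was negative at 5 of 6 spots and near 0 at the other, and the median over spots was -1.16, past 2-fold. The ratio was smaller in size without centring (-0.64) and after removal of the trend of ratio with brightness (-0.70). On the channel order reading both stimuli at 1 h had more IRF1 transcript than unstimulated cells. Both arrays share the unstimulated condition, so these are not separate results.

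Later IRF1 ratios stayed within 2-fold. Between 4 h and 2 h of E. coli all 6 spots were negative, from -1.15 to -0.47, with a mean of -0.82 ± 0.22, which on the channel order reading puts more IRF1 at 4 h. It was -0.32 without centring, and -0.41 after removal of the trend of ratio with brightness. At 4 h the spots ran from -1.63 to 0.83 (mean -0.53 ± 1.00), with clone means of -0.24 and -0.82, and the spread was wider than the ratio. At 8 h all 6 spots lay between -0.64 and -0.18 (mean -0.40 ± 0.16). Removal of the trend with brightness turned the sign of these last ratios, to 0.25 at 4 h and 0.08 at 8 h, so the side of IRF1 between E. coli and LPS depended on the processing.

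IRF7 is the factor that switches on type I interferon genes after a virus or a microbe is sensed, and in the chicken it also takes the place of IRF3, which mammals have as a separate gene. It stood apart from the other genes at 1 h. On the E. coli 1 h array its spots were -0.58, -1.09 and -1.22, with a mean of -0.96 ± 0.34, and only 38 of 2251 genes had a lower ratio. This mean lay just within 2-fold. The ratio came past it with the median over spots (-1.09), after removal of the trend with brightness (-1.13) and with arrays scaled to 1 spread (-1.26). Scaling widens this array by construction, and without centring the ratio stayed within 2-fold, at -0.89. The LPS 1 h array gave spots of 0.47, 0.49 and 0.76, with a mean of 0.57 ± 0.16. In both cases no spot of IRF7 reached the range of spots of any of the other 4 genes. On the channel order reading this is less IRF7 transcript after either stimulus. Both arrays hold unstimulated RNA, and its part in these ratios could not be separated.

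The later IRF7 ratios were larger and scattered more. Between 4 h and 2 h of E. coli the spots were -1.99, -0.88 and -3.84, with a mean of -2.24 ± 1.50, and 20 of 2252 genes had a lower ratio. All 3 spots were negative, but they spanned almost 3 log2 units. The 4 h array gave 0.23, 1.60 and 2.57, a mean of 1.47 ± 1.17, with all spots positive and 1 of them near 0. These arrays share the E. coli 4 h condition, in channel 2 of the E. coli time array and channel 1 of the 4 h array. A high level in that condition alone would give both signs under the channel order reading. At 8 h the spots were 0.48, -0.15 and 0.23, with a mean of 0.19 ± 0.31 that was smaller than its spread.

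IRF8 is a factor of myeloid cells that in the mouse pairs with PU.1 and directs monocytes and macrophages. Its mean ratio was past 2-fold on the E. coli 1 h, E. coli time and 8 h arrays. Its spots on the E. coli 1 h array read 1.04, 1.34 and 1.66, all past 2-fold, with a mean of 1.34 ± 0.31. The LPS 1 h array gave -1.14, -0.79 and -0.77, a mean of -0.90 ± 0.21, with all spots on the other side and 1 past 2-fold. The LPS 1 h ratio was -0.61 without centring and -0.74 after removal of the trend with brightness. On the channel order reading IRF8 was higher after either stimulus at 1 h, though both arrays share the unstimulated condition and are not separate results. Between 4 h and 2 h of E. coli the spots were 0.59, 0.73 and 3.05. The mean of 1.46 ± 1.38 was carried by 1 spot, and with the median over spots the ratio was 0.73, within 2-fold.

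IRF8 differed in ratio between the 4 h and 8 h arrays. At 4 h its spots were -0.57, 0.81 and 0.61, with a mean of 0.28 ± 0.75 that did not exceed its spread. At 8 h they were 1.43, 1.68 and 2.82, with a mean of 1.98 ± 0.74, and 86 of 2220 genes had a higher ratio. The spots of the arrays did not overlap, every spot at 8 h lying above every spot at 4 h. Spots give technical spread only, so a difference between the times was not tested. On the channel order reading E. coli cells had more IRF8 transcript than LPS cells at 8 h. Macrophage markers leaned the other way on both arrays, with a median over 11 genes of -1.18 at 8 h and -1.02 at 4 h. These markers were bright, with a median intensity percentile of 87.5, and bright spots of any gene leaned negative on both arrays. The brightest 10% of spots had medians of -0.43 at 8 h and -0.76 at 4 h, and the next 10% had -0.22 and -0.58. Of the 2 T cell genes read, CD3D had -4.01 at 8 h and -2.70 at 4 h, and CD28 had -0.49 and 2.10. The part of these cells and of brightness in the ratios was not tested.

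SOCS1, which binds JAK kinases directly and is the main brake on interferon signalling in the mouse, was most distinct after LPS. On the LPS 1 h array its spots were -2.99, -2.12 and -1.61 on one clone and -1.44, -1.75 and -1.60 on the other, all past 2-fold, with a mean of -1.92 ± 0.57. Both clones were past 2-fold alone, at -2.24 and -1.59, and 68 of 2251 genes had a lower ratio. The E. coli 1 h array gave 1.01 and 0.30 on the first clone and 0.69, 1.82 and 1.08 on the second, a mean of 0.92 ± 0.56 over 5 spots. All were positive, and the mean lay just within 2-fold, at 1.01 with the median over spots and 1.02 after removal of the trend with brightness. On the channel order reading SOCS1 was higher after either stimulus at 1 h, but the unstimulated condition is common to both arrays, so these are not separate results.

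At the later times the SOCS1 spots were widely spread, and at 4 h the clones went apart. There the first clone read -2.85, -2.79 and -2.19, with a mean of -2.61 ± 0.36, and the second 2.33, -0.35 and 0.38, with a mean of 0.79 ± 1.39. No spot of one clone was within the range of the other, and the gene mean of -0.91 ± 2.07 stood for neither. At 8 h the first clone had 1.88, 0.35 and 0.71 and the second 1.06 and -1.40, with a gene mean of 0.40 ± 1.21. Between 4 h and 2 h of E. coli the means were 0.71 ± 0.84 and -0.17 ± 1.09. On both of these arrays the spots of the clones overlapped. The second clone was the dimmer of the pair at LPS 2 h, at 0.49 against 1.00, and the part of brightness in the disagreement at 4 h was not tested.

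SOCS3, which in the mouse binds the shared IL6 receptor subunit IL6ST and ends signals of IL6, had the ratio of largest size among the 5 genes. On the LPS 1 h array its spots were -1.82, -4.72 and -3.55, with a mean of -3.37 ± 1.46. All 3 were past 2-fold, though they differed by almost 3 log2 units, and 23 of 2251 genes had a lower ratio. The E. coli 1 h array gave 0.44, 1.22 and 0.78, a mean of 0.81 ± 0.39, with 1 of 3 past 2-fold. On the channel order reading SOCS3 was higher after either stimulus, by 10.3-fold for LPS and 1.75-fold for E. coli. The size of the LPS value depended on the processing, since with arrays scaled to 1 spread the log2 ratio was -6.19. The difference between the stimuli was not tested, since each had 1 array and they shared the unstimulated condition.

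**Figure D3:**
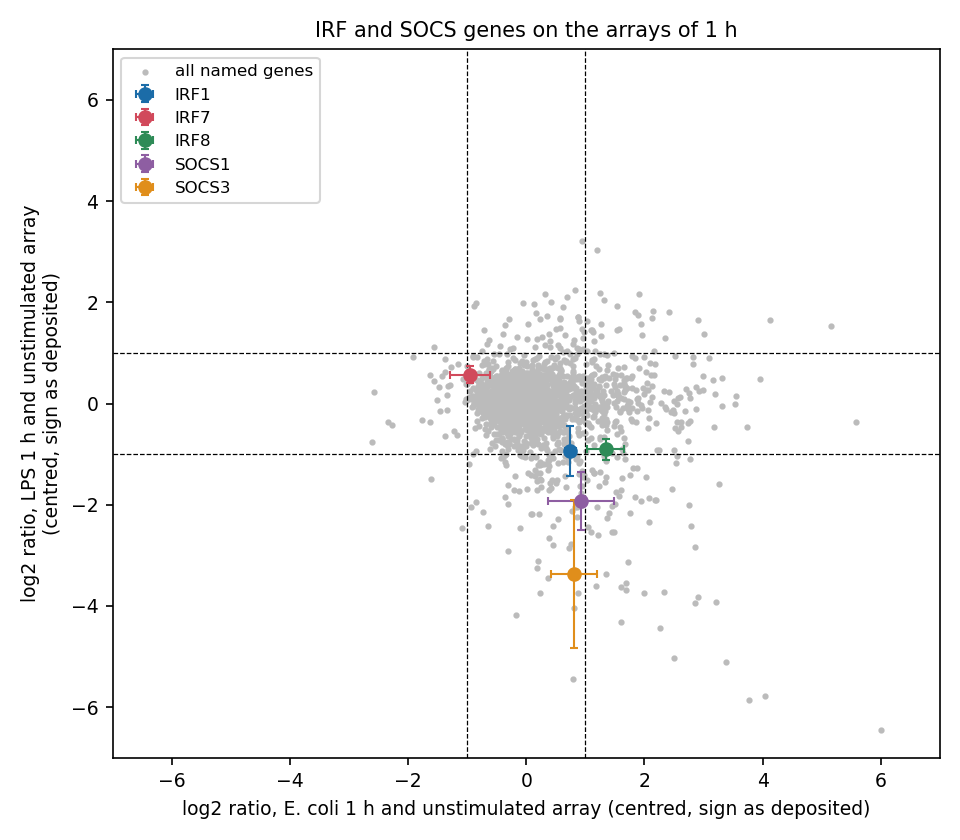
Centred log2 ratios of all named genes (grey) on the E. coli 1 h array (horizontal axis) and the LPS 1 h array (vertical axis), with the 5 genes in colour, error bars of the SD over spots and dashed lines at 2-fold. IRF1, IRF8, SOCS1 and SOCS3 are positive on the first and negative on the second, and IRF7 lies across the origin from them. Both arrays hold the unstimulated condition, in opposite channels, so a deviation in that condition alone would also give opposite signs.

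SOCS3 was also past 2-fold at both late times. At 4 h the spots were 1.57, 2.09 and 2.34 (mean 2.00 ± 0.39), and at 8 h 1.42, 1.39 and 1.66 (mean 1.49 ± 0.14). All 6 spots were past 2-fold on the positive side, which on the channel order reading is more SOCS3 in E. coli cells than in LPS cells, 4.01-fold at 4 h and 2.81-fold at 8 h. Among 2216 genes read on both arrays, 161 were past 2-fold on the positive side of both, 41.9% of the 384 at 4 h and 48.8% of the 330 at 8 h. Both arrays have a trend with brightness, from medians of 1.18 at 4 h and 0.67 at 8 h in the dimmest 10% of spots to -0.76 and -0.43 in the brightest 10%. SOCS3 was in the bright part, and its ratios became 2.51 and 1.74 after removal of the trend, and 1.39 and 1.33 with arrays scaled to 1 spread. Between 4 h and 2 h of E. coli its spots were 1.17, 0.17 and 0.59, with a mean of 0.65 ± 0.50, within 2-fold (1.14 without centring).

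**Figure D4:**
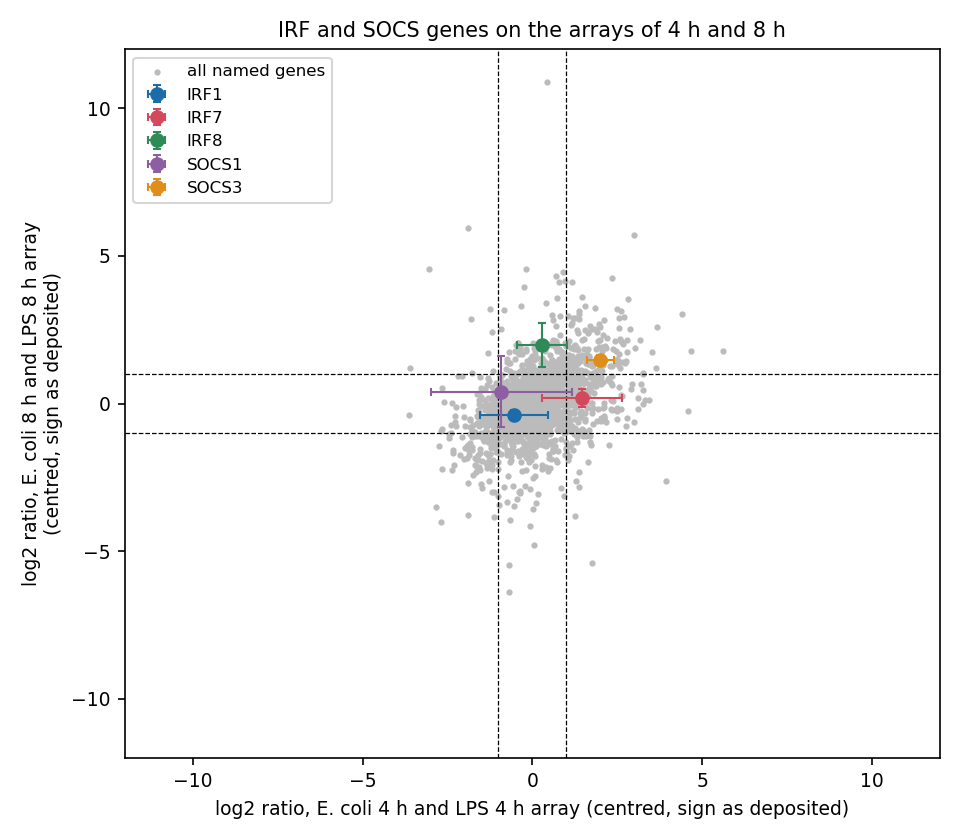
Centred log2 ratios of all named genes (grey) on the 4 h array (horizontal axis) and the 8 h array (vertical axis), each E. coli with LPS, with the 5 genes in colour, error bars of the SD over spots and dashed lines at 2-fold. SOCS3 is past 2-fold on both, IRF8 only at 8 h and IRF7 only at 4 h, where its error bar crosses the line.

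Within each array the order of the 5 genes was only partly resolved by the spots. On the E. coli 1 h array IRF8, SOCS1, SOCS3 and IRF1, in falling order, overlapped with their neighbours, and IRF7 lay below IRF1 by 1.71 with no overlap. On the LPS 1 h array IRF7 lay 1.47 above IRF8 and IRF1 0.98 above SOCS1, both with no overlap, while IRF8 overlapped with IRF1 and SOCS1 with SOCS3. Neighbours overlapped throughout on the E. coli time array and on the 4 h array. At 8 h IRF8 and SOCS3 led, and the only neighbours that did not overlap were IRF7 and IRF1, 0.59 apart.

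Of 135 other genes listed for the interferon and JAK-STAT pathways 45 were named on the array, and the 11 JAK kinases and STAT factors of the list were not among the 45 analysed here. The number past 2-fold in either direction was 8 of 45 after E. coli 1 h, 7 on the LPS 1 h array, 11 on the E. coli time array, 12 on the 4 h array and 11 of 44 on the 8 h array. Over all genes the shares were 16.3%, 11.2%, 23.1%, 29.4% and 27.9%, so these counts were close to the background. The list median lay between -0.20 and 0.14 on all 5 arrays.

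The ligand of the list on the array was IL6, the cytokine whose signal SOCS3 restrains in the mouse. IL6 had 0.72 ± 0.11 on the E. coli 1 h array, -2.85 ± 0.03 on the LPS 1 h array, -0.31 ± 0.16 between 4 h and 2 h of E. coli, 1.78 ± 0.24 at 4 h and 1.03 ± 0.24 at 8 h. Its sign matched that of SOCS3 on 4 of 5 arrays, and the exception was the E. coli time array. Both arrays of 1 h hold unstimulated RNA, so their matches are not separate. The pair was also set side by side after the values were seen, and the match was not tested. The receptor subunit IL6ST was dim (intensity percentile 3.77) and had 1.69 ± 0.31 at 4 h and 2.61 ± 1.11 at 8 h.

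Of 14 receptors, those past 2-fold were 2 after E. coli 1 h, 4 on the LPS 1 h, E. coli time and 4 h arrays, and 5 on the 8 h array. Over all genes the shares on the 5 arrays were 16.3%, 11.2%, 23.1%, 29.4% and 27.9%. The counts include genes whose spots had both signs, such as IL6ST with 2.37 ± 5.29 on the E. coli 1 h array. IFNAR1, a chain of the type I interferon receptor, had 1.50 ± 0.17 over 6 spots on the LPS 1 h array, the same side as IRF7 and opposite to the other 4 genes. On the E. coli 1 h array IFNAR1 had 0.58 ± 0.15, opposite to IRF7 and on the side of the other 4 genes. Its partner IFNAR2 had 0.68 ± 0.29 on the LPS 1 h array and -1.13 ± 0.34 on 2 spots at 4 h. CSF2RA, the receptor chain for the growth factor GM-CSF, was negative at both late times, with -1.69 ± 0.16 at 4 h and -1.86 ± 0.44 at 8 h. CSF1R, the receptor for macrophage growth factor, had 1.17 ± 0.43 on the LPS 1 h array. IL22RA1 had -2.29 ± 0.06 between 4 h and 2 h of E. coli and 1.42 ± 1.10 at 8 h, and OSMR, the oncostatin M receptor, had 1.20 ± 0.68 and -1.49 ± 0.40 on the same arrays. IL2RA, a chain of the interleukin 2 receptor, had -1.10 ± 0.38 on the LPS 1 h array. IL21R was dim (intensity percentile 5.55) and negative on the first 3 arrays, with -1.62 ± 1.97 on 2 spots, -1.49 ± 0.78 on 2 spots and -1.37 ± 0.79.

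Other members of both families were mostly within 2-fold, as were most genes, with 11.2% to 29.4% of all genes past it on the 5 arrays. IRF2, an antagonist of IRF1 in the mouse, IRF4, a factor of lymphocytes and myeloid cells, and IRF5, a factor of inflammatory cytokine genes, were within 2-fold on all 5 arrays, from -0.64 to 0.27. Single spots went further. The lowest IRF2 spot between 4 h and 2 h of E. coli was -2.08, with a mean of -0.61 ± 1.08. Its highest spots were 1.30 on the LPS 1 h array, 1.21 at 4 h and 1.10 at 8 h. IRF5 had a lowest spot of -1.42 on the E. coli 1 h array, with a mean of -0.55 ± 0.91, and IRF4 had one of -1.16 at 4 h. SOCS5 was within 2-fold on 4 arrays and had -1.28 ± 0.33 at 4 h, the opposite side to SOCS3. PTPN1, a phosphatase that acts on JAK kinases, had -1.10 ± 0.25 at 4 h. Its intensity percentile was 91.9, and that of SOCS5 was 64.3. The brightest 10% of spots had a median of -0.76 on the 4 h array, and the part of brightness in both values was not tested. The 6 inhibitors beside SOCS1 and SOCS3 were otherwise within 2-fold, in 28 of 30 ratios.

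Of the interferon targets, 6 of 21 genes were past 2-fold after E. coli 1 h, 2 on the LPS 1 h array, 7 on the E. coli time array, 5 on the 4 h array and 5 of 20 on the 8 h array, with medians between -0.20 and 0.22. In the same order the shares over all genes were 16.3%, 11.2%, 23.1%, 29.4% and 27.9%. Some counted genes had spots of both signs, such as TLR3 with -2.58 ± 2.72 on the E. coli 1 h array. On the E. coli 1 h array GBP1, a large GTPase, had 1.46 ± 0.32, the DNA sensor CGAS 1.91 ± 0.14, GVINP1 1.09 ± 0.67, NMI, which binds STAT factors, 3.09 ± 3.19 and IFI27L2 -1.18 ± 0.70. The GBP1, CGAS and GVINP1 clones were dim, at intensity percentiles of 15.0, 3.24 and 19.4. Dim spots leaned to the positive side of this array, with median ratios of 0.83 in the dimmest 10% of spots, 0.71 in the next 10% and -0.24 in the brightest 10%. On the LPS 1 h array ZC3HAV1, an antiviral RNA-binding protein, had -2.42 ± 0.66, on the side of the SOCS genes, and IFIH1, a sensor of viral RNA with a dim clone (percentile 8.39), had 1.64 ± 1.08. MX1 and OASL, classic interferon-stimulated genes, lay within 2-fold on all arrays, MX1 from -0.60 to 0.58 and OASL from -0.43 to 0.31. IFIT5, the chicken member of the IFIT family, had -0.9996 ± 0.09 on the E. coli 1 h array and 0.73 ± 0.16 on the LPS 1 h array, the same sides as IRF7. It had -0.46 ± 0.06 between 4 h and 2 h of E. coli, -0.69 ± 0.34 at 4 h, where IRF7 was positive, and 0.04 ± 0.28 at 8 h. MX1, OASL and IFIT5 were chosen after their values were seen.

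At the later times GBP1 had 2.85 ± 1.83 between 4 h and 2 h of E. coli, CGAS 1.61 ± 0.96, IFIH1 1.49 ± 1.63, the adaptor MYD88 1.30 ± 1.06 and PARP9 1.27 ± 0.15, on the side of IRF8, while GBP4L, with -1.28 ± 0.12, and the peptide transporter TAP2, with -1.07 ± 0.56 over 9 spots, were on that of IRF7. At 4 h IFIH1 had 1.77 ± 0.81, GVINP1 1.17 ± 0.36, TLR3, a sensor of double-stranded RNA, 1.16 ± 0.23 on 2 spots and CGAS 1.03 ± 0.07 on 2 spots. The lysosomal thiol reductase IFI30, which prepares antigens, was negative at both late times, with -1.40 ± 0.24 at 4 h and -1.18 ± 0.27 at 8 h. At 8 h GVINP1 had 4.12 ± 2.25, ZC3HAV1 1.52 ± 0.47 and PARP9 -2.95 ± 2.80 on 2 spots. Dim clones leaned to the positive side of these arrays as well, and the part of brightness in these values and in those at 1 h was not tested.

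**Figure D5:**
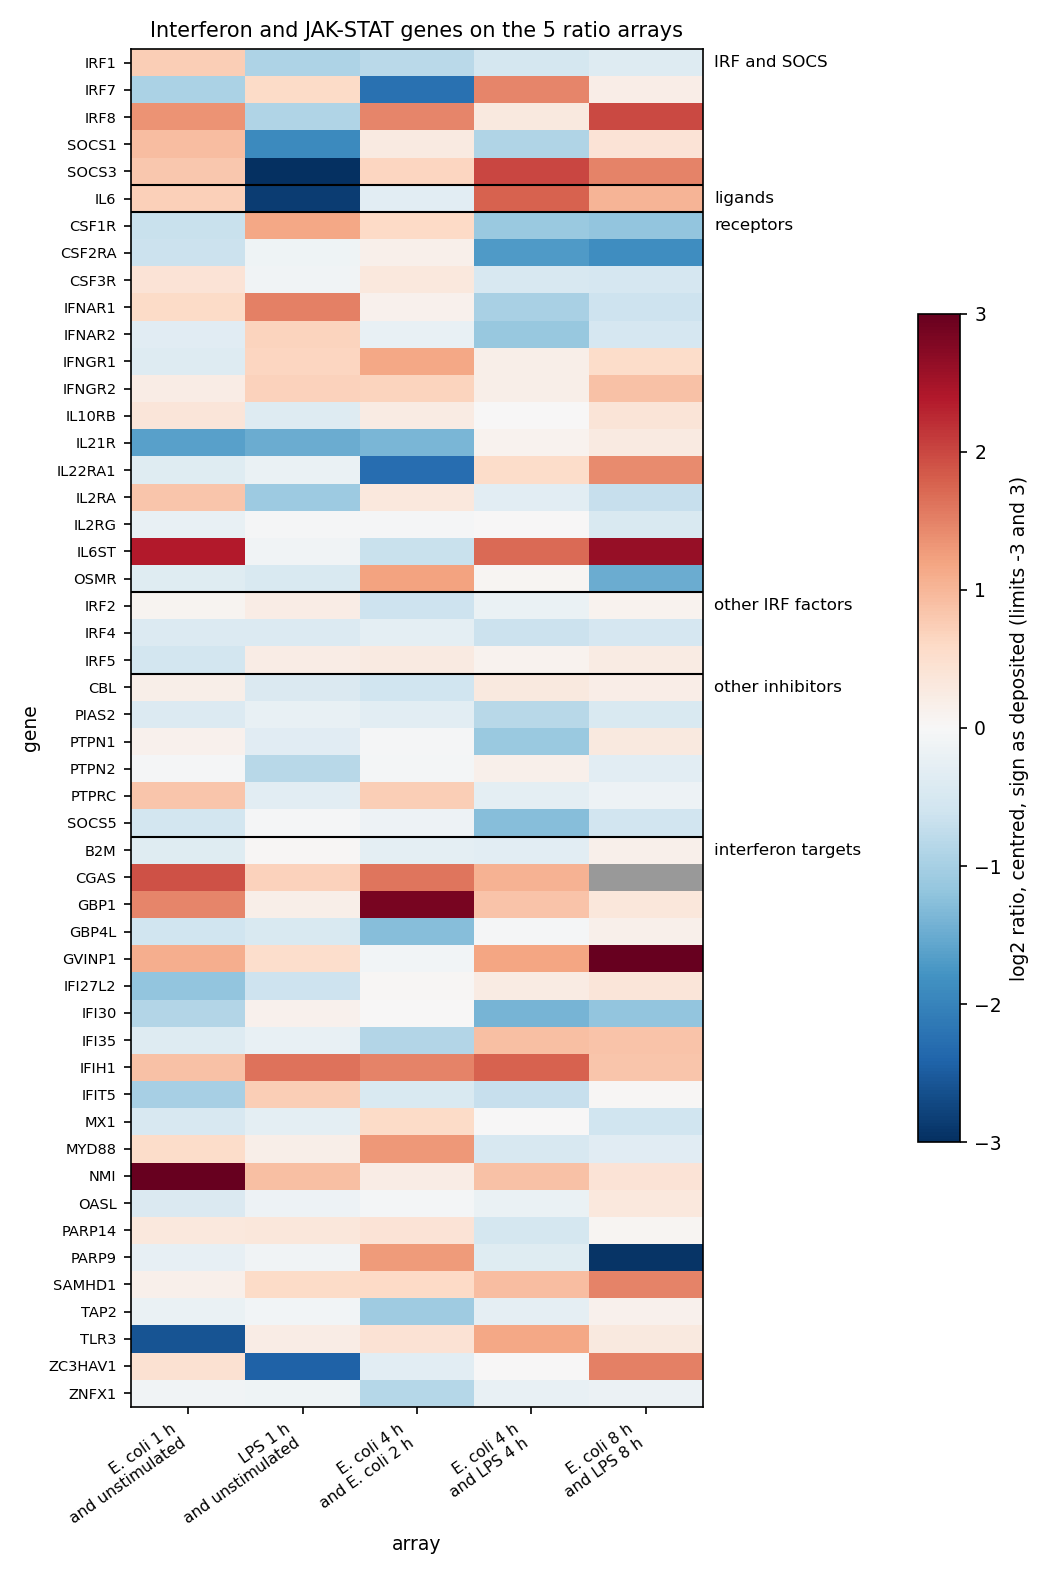
Centred log2 ratios (colour scale from -3 to 3, sign as deposited) of the 5 genes and of the 45 listed interferon and JAK-STAT genes (rows, grouped by role) on the 5 ratio arrays (columns); grey marks no value. SOCS3 and IL6 are dark on the LPS 1 h array and share their colour at 4 h and 8 h, while the other IRF factors stay pale.

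Likeness of pattern was measured as the distance over the 5 centred ratios, among 1386 other genes with at least 3 spots on every array and an intensity above the dimmest 25%. The nearest genes lie below the median distance by construction, so the median is given for scale only. Ratios were not scaled, so distances depend on the size of a gene's ratios as well as on their pattern. IRF1 was nearest to IL16 (distance 0.69), the kinase FYN (0.70) and ZC3H12A (0.71), an RNase that degrades cytokine mRNA, against a median distance of 1.94. SOCS1 was nearest to the transporter ABCC1 (0.68), the adhesion receptor CD44 (0.69) and the proteoglycan SDC4 (0.77), against 2.66, although its own clones disagreed at 4 h. IRF8 had C11orf49 (1.11), RNF19B (1.23) and the amino acid carrier SLC7A3 (1.26) nearest, against 3.37, and IRF7 had TPRA1 (1.29), ITSN1 (1.41) and the kinase IKBKB (1.42), against 3.23. The distances of SOCS3 were longer, with G0S2, an inhibitor of fat breakdown, at 1.73, the sorting nexin SNX10 at 1.86 and RSPRY1 at 2.28, against 4.59. IL6 lay 1.21 from SOCS3 but had only 2 spots at 8 h, and was set beside it after its values were seen.

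Distances among the 5 genes varied. By gene means IRF1 and SOCS1 were 1.72 apart, with 48 of 1386 genes nearer to SOCS1 than IRF1 was and 457 nearer to IRF1 than SOCS1 was. Of the same genes 56 were nearer to SOCS3 than IRF8 was (distance 3.20) and 91 were nearer than SOCS1 was (3.45). In the other direction 537 were nearer to IRF8 than SOCS3 was, and 1246 nearer to SOCS1 than SOCS3 was. IRF7 lay between 3.40 from IRF1 and 5.38 from SOCS3, with 825 to 1352 genes nearer to it than each of the other 4. The distances of SOCS1 rest on its 4 h mean of -0.91, which lay between clone means of -2.61 and 0.79, so their order could differ with either clone alone.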

How the data were processed

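The authors deposited 1 table with 14718 spots and a column for each of 6 arrays of chicken macrophage RNA, and groups came from the labels, with 1 array each. For the 5 arrays with 2 channels the deposited values were taken as log2 ratios. Only 1 spot was beyond 16 in size, which cannot decide the base. The base is unstated and was assumed to be 2, and with another base every fold would differ. For LPS 2 h the deposited column is a linear intensity, with 204 values below 0. For dyes, numerator, normalization and background correction the sources used here give nothing, so scale, centring and direction remain unknown. Medians as deposited were 0.07 (E. coli 1 h), 0.29 (LPS 1 h), 0.49 (E. coli 4 h with 2 h), -0.11 (4 h), 0.12 (8 h) and 0.48 (LPS 2 h intensity).

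A probe table of 2007 named 1 gene for 9066 spots and several for 3, and did not list 5649. Current symbols came from a RefSeq gene table (GRCg7b) by identifier, 2228 of 2255 matched, and it gave names only. Ratios were centred on the array median, and a gene's ratio is the mean of its clone means. No sequence table was used. The steps were tested on simulated data. Members, lists and the rule for naming genes were chosen with earlier results of these data known. The rule named all 5 genes, list members past 2-fold whose spots shared 1 sign, and the 3 nearest genes by distance. The whole list of markers held T cell, B cell, thrombocyte, erythroid, heterophil, dendritic and stromal genes beside those of macrophages. Alternatives were no centring, removal of a lowess trend (span 0.3) on the rank of LPS 2 h intensity, the median over spots, spots above the dimmest 25%, and arrays scaled to 1 spread. Each clone alone and each set of spots centred were added after seeing the data. The tools were numpy 2.4.6, pandas 2.3.3, statsmodels 0.14.6 and matplotlib 3.10.9 under Python 3.11.15.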

Additional observations from a re-analysis of the deposited data

How the results depend on the processing

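Of 125 ratios of the 5 genes under the 5 other processing settings, 123 kept their sign, and the 2 that turned were those of IRF1 at 4 h and 8 h on removal of the trend with brightness. Scaling multiplies an array by a positive factor and cannot turn a sign. The filter to brighter spots left all 25 ratios at their values. Neither setting could therefore test a sign here. Of the 9 ratios past 2-fold, 1 fell within it under 1 alternative (IRF8 between 4 h and 2 h of E. coli, 0.73 with the median over spots), and 14 times a ratio within 2-fold came past it. For E. coli 1 h the count of the 5 genes past 2-fold was 1, and 3 with the trend removed, 3 with the median over spots and 4 with arrays scaled to 1 spread. It was 2 on the LPS 1 h array, 3 with the median over spots and 5 when scaled. Between 4 h and 2 h of E. coli it was 2, 3 without centring and 1 with the median over spots. At 4 h it was 2, and 3 both without centring and with the median over spots. At 8 h it was 2 under every setting. Of the 45 listed genes, E. coli 1 h had 8 past 2-fold, 3 over brighter spots and 13 when scaled. The count was 7 on the LPS 1 h array and 16 when scaled, 11 between 4 h and 2 h of E. coli and 7 over brighter spots, and 12 at 4 h, 5 with the trend removed and 4 when scaled. Over all genes it was 366 on the E. coli 1 h array and 188 over brighter spots, 251 on the LPS 1 h array and 549 when scaled, and 661 at 4 h and 314 when scaled. Scaling narrows the noisier late arrays and widens both arrays of 1 h by construction, and the filter tests fewer genes; the cause of the other shifts was not tested. Centring each set of spots left every count of the 5 genes as it was. No paired analysis was possible because each group held 1 array. IRF7 and the second SOCS1 clone had intensities of 0.30 and 0.49 at LPS 2 h, below the median of 0.51 over all genes. Signal over background was not measured here. The filter to brighter spots changed no ratio of the 5 genes, so it could not test the part of dim signal. With 1 array per comparison no ratio can be set against spread between cultures.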

Other observations

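By their identifiers the spots of a clone fell into 3 sets, and the sets differed in level. The median deviation from the clone mean in sets 1, 2 and 3 was -0.10, -0.01 and 0.10 on the E. coli 1 h array, -0.13, -0.0020 and 0.13 on the LPS 1 h array, -0.15, -0.0010 and 0.14 between 4 h and 2 h of E. coli, -0.30, -0.06 and 0.27 at 4 h and -0.32, -0.02 and 0.31 at 8 h. The spread of the 5 genes over spots contains this difference, and the sign of the step was the same on all 5 arrays.

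The marker lists gave further values at LPS 2 h. Of 4 dendritic cell genes read, BATF3 had an intensity of 6.80 ± 8.06 and CD83 5.50 ± 5.73, each SD being larger than the mean, and ZBTB46 had 0.73 ± 0.09 and LY75 0.19 ± 0.04. The B cell kinase BTK had 0.46 ± 0.16, the thrombocyte genes GP1BB and TUBB1 0.83 ± 0.51 and 1.33 ± 0.93, and the T cell receptor CD28 0.49 ± 0.51, against 5.40 ± 0.40 for CD3D. No stromal marker of the list was among the named genes. Which cells carried the SOCS3 and IRF8 transcripts was not measured.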
